A study of Mus musculus with 6 samples.

Results

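ERK signalling is held in check by genes that act on Ras, on the adaptor complex that switches Ras on, and on ERK itself. The set described here was chosen by gene symbol and names 10 genes: the Sprouty genes Spry1, Spry2 and Spry4, the Sprouty-related genes Spred1 and Spred2, the Ras GTPase-activating genes Nf1 and Rasa1, the ERK phosphatase gene Ptpn7, and the adaptor Grb2 and exchange factor Sos1, through which receptors reach Ras. Of these, 9 had a row under their symbol in the table of 41921 rows and 7 had enough reads to be tested, out of 13158 tested genes. No row carried the symbol Rasa1.

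RNA was sequenced from RAW264.7, a wild-type mouse macrophage line. Its cells can become osteoclasts, which resorb bone, when they are given the cytokine RANKL. The labels give 3 libraries under albiflorin, a plant glycoside from peony roots, and 3 libraries under RANKL. The differentiation protocol of all 6 samples names RANKL at 50 ng/mL on post-confluent cells. No label says separately if the albiflorin cultures had both agents, and no source used here gives its dose or time. No library without RANKL in its protocol was analysed here, and the cells are a single line. No label ties the replicates to separate dishes, so a p-value here weighs a difference only against library-to-library spread, possibly technical.

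When a growth factor or cytokine receptor is engaged, Grb2 brings the exchange factor Sos1 to the membrane, Sos1 loads Ras with GTP, and Ras starts the Raf, MEK and ERK kinase cascade. Sprouty proteins interfere with the receptor-proximal steps, Spred proteins bind neurofibromin (the product of Nf1) and bring it to the membrane where it makes Ras hydrolyse its GTP, and Ptpn7 removes phosphate from ERK in blood-lineage cells. In osteoclast precursors, ERK is activated downstream of both M-CSF and RANK.

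The libraries held 13673284 to 15489482 counts. Macrophage markers were abundant, with a summed level of 4472 to 4578 CPM (counts scaled to library size) in albiflorin libraries and 4201 to 4529 CPM in RANKL libraries. The highest was the M-CSF receptor gene Csf1r, and Itgam was at 0 in albiflorin libraries and averaged 0.0245 CPM in RANKL libraries. Of 8 tested, 3 were higher with albiflorin (Tyrobp, Spi1 and Cd14) and 1 was lower (Adgre1) at an edgeR adjusted p under 0.05. Of all tested genes, 12.4% were called higher and 11.4% lower. With a trend on gene or mRNA length removed, only Spi1 and Adgre1 were still called. The 3 higher were 2 without albiflorin replicate 1 or RANKL replicate 2, and Adgre1 lost its call without RANKL replicate 1. Osteoclast markers differed in level. The cathepsin K gene Ctsk averaged 0.693 ± 0.2 CPM with albiflorin and 0.457 ± 0.121 CPM with RANKL (SD, n = 3 each). The calcitonin receptor gene Calcr had no counts. Apart from Csf1r, Itgam, Ctsk, Calcr, Acp5 and Nfatc1, the markers were named after their values were seen. Means with albiflorin and with RANKL were 19.0 and 18.3 CPM for Dcstamp, 10.6 and 7.65 for Mmp9, and 7.79 and 6.03 for Atp6v0d2. They were 1.57 and 2.66 CPM for Itgb3, 0.691 and 0.568 for Ocstamp, and 0.12 and 0.113 for Oscar. The acid phosphatase gene Acp5 averaged 28.0 ± 1.59 CPM with albiflorin and 22.9 ± 2.11 CPM with RANKL. The most abundant osteoclast marker, the transcription factor gene Nfatc1, averaged 122 ± 5.5 CPM with albiflorin and 143 ± 7.45 CPM with RANKL. Of 7 osteoclast markers tested, 1 was higher (Acp5) and 1 was lower (Nfatc1), and neither was called once a trend on gene or mRNA length was removed. Both calls were also lost without albiflorin replicate 1, albiflorin replicate 2 or RANKL replicate 2 (edgeR adjusted p 0.0990, 0.130 and 0.0975 for Acp5 and 0.0506, 0.0575 and 0.0816 for Nfatc1), and that of Acp5 without RANKL replicate 1 (0.142). The summed level of the osteoclast list was 186 to 196 CPM with albiflorin and 194 to 208 CPM with RANKL. The summed level of lymphoid markers reached at most 0.659 CPM with albiflorin and 0.701 CPM with RANKL, that of osteoblast and fibroblast markers 2.77 CPM with albiflorin and 4.4 CPM with RANKL, and that of endothelial and epithelial markers 0.593 CPM with albiflorin and 0.877 CPM with RANKL.

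The Sprouty and Spred genes differed most in level, so the stretches before their starts are shown. They are the 250 bases upstream of the RefSeq start in GRCm38.p6, 5′ to 3′ on the gene's strand, with capitals at matches to the motifs listed next. Spry4 is not shown.
Spred1 (chr2:117120821-117121070, plus strand): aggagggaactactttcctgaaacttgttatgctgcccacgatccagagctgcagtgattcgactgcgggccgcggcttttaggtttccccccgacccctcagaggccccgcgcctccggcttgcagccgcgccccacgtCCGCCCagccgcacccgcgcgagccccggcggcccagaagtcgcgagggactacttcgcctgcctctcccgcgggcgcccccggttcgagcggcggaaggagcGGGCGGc
Spred2 (chr11:19924192-19924441, plus strand): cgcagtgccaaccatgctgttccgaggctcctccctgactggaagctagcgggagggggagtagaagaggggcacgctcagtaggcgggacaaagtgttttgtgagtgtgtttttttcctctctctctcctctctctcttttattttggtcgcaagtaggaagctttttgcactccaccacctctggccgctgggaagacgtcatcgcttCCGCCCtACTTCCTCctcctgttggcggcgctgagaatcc
Spry1 (chr3:37639697-37639946, plus strand): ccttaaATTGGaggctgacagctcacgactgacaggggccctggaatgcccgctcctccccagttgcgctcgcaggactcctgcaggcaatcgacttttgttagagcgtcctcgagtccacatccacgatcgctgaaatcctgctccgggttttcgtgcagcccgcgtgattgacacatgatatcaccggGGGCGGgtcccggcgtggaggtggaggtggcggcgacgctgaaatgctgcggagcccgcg
Spry2 (chr14:105896820-105897069, minus strand): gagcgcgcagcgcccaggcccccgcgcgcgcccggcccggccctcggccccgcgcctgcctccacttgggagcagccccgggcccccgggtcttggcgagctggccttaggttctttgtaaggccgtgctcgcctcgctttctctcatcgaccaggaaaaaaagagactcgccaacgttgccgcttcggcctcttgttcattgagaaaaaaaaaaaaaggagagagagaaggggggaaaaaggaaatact

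The stretches were searched on both strands for 9 motifs. The AP-1 motif, which Fos and Jun proteins bind, was TGACTCA with TGAGTCA as its other allowed form. The CRE motif was TGACGTCA, and the ETS motif, bound by ERK-regulated ETS factors, was CCGGAAG. The PU.1 motif, bound by a factor that macrophages need, was GAGGAAGT. The motif of Sp and KLF factors was GGGCGG, and that of EGR factors was GCGTGGGCG or GCGGGGGCG. The SRE, the CCAAT box and the TATA box, written TATAAA, were searched as well. Spred1 held 2 Sp/KLF matches, and Spred2 held 1 Sp/KLF and 1 PU.1 match, with the PU.1 match at bases -33 to -26 from the start. Spry1 held 1 Sp/KLF match and 1 CCAAT match, and Spry2 held none of these letters. No matches overlapped each other in these 4 stretches. Among 32851 such stretches, 32.7% held an Sp/KLF match, 33.8% a CCAAT match and 2.44% a PU.1 match. The GC content was 70.8% for Spred1, 56% for Spred2 and 62.4% for both Spry1 and Spry2, against a median of 52.4%. CpG observed over expected was 1.0 for Spred1, the most abundant gene, and 0.946 for Spry1, which had no counts, against a median of 0.373. AP-1, EGR and SRE matches, found in 4.46%, 3.06% and 0.0609% of all stretches, occurred in none of the 9 genes with a stretch.

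Spred1 was the most abundant gene of the set and the Sprouty genes were at or near the detection limit. In FPKM, the authors' level per gene length and library size, Spred1 averaged 148 over the 6 libraries, which placed it at rank 322 of the 13158 tested genes. Grb2 followed at 50.3 FPKM, Ptpn7 at 19.4, Spred2 at 16.9, Sos1 at 6.7, Nf1 at 4.38, Spry2 at 0.585 and Spry4 at 0.148. Spred1 was thus 8.73 times Spred2 and 253 times Spry2 on this per-length scale. Ptpn7 and Spred2 were neighbours that overlapped across the 6 libraries (17 to 21.3 and 15.6 to 18.5 FPKM), while all other neighbours in this order were separated in every library. Dividing by the mRNA length of the principal transcript instead of the listed gene length kept the order but moved Ptpn7 to 36.3 and Spred2 to 27.8 FPKM, with Spred1 at 167.

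**Figure D1:**
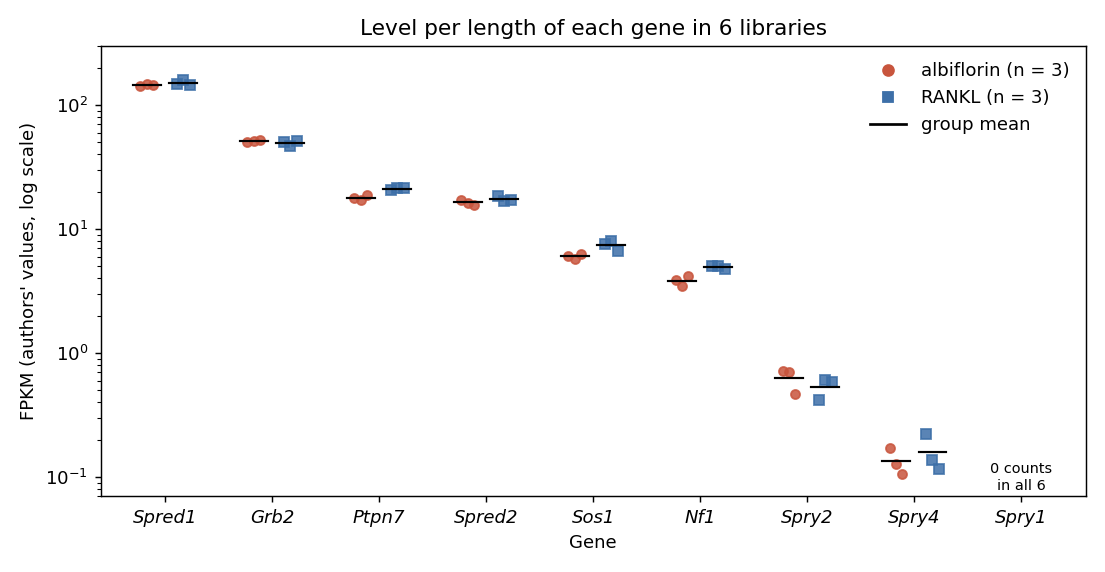
Level of each gene with a row, in FPKM on a log axis, for 3 albiflorin libraries (circles) and 3 RANKL libraries (squares), with black lines at the group means. Spred1 stood near 148 FPKM, Spry2 and Spry4 below 1 FPKM, and Spry1 had no counts.

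Among the Sprouty genes, which are themselves classical products of ERK signalling, Spry1 (MGP_C57BL6NJ_G0027591, chromosome 3, 37142039 to 37146689 in the table's coordinates) had 0 counts in all 6 libraries. A count of 0 allows up to 3 counts, or 0.198 to 0.223 CPM in albiflorin libraries and 0.191 to 0.22 CPM in RANKL libraries. This limit, like the other counting limits here, covers counting error only. Whether the Spry1 row would hold all reads of the gene was not tested. Spry2 (chromosome 14, 106604157 to 106609886) had 23, 20 and 14 counts in albiflorin libraries and 12, 20 and 18 counts in RANKL libraries. The groups overlapped, and its log2 fold change of 0.23 ± 0.34 (SE; 95% interval -0.43 to 0.90) did not pass the test (edgeR quasi-likelihood test, Benjamini-Hochberg adjusted p = 0.671). Spry4 (chromosome 18, 38380611 to 38395604) had 12, 8 and 7 counts with albiflorin and 14, 10 and 8 counts with RANKL, and was too low to test. At these depths a difference of moderate size in Spry2 or Spry4 was not detectable.

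The Spred genes did not pass the test. Spred1 (MGP_C57BL6NJ_G0026729, chromosome 2, 123692623 to 123755701) stood at 977.6, 1005 and 993.8 CPM in albiflorin libraries and at 1007, 1094 and 981.8 CPM in RANKL libraries. RANKL replicate 2 was the highest of the 6 and the groups overlapped. The log2 fold change was -0.05 ± 0.0631 (SE), with a 95% interval of -0.17 to 0.07 (edgeR adjusted p = 0.610). Spred2 (chromosome 11, 18201225 to 18311107) stood at 81.6, 76.6 and 73.5 CPM with albiflorin and at 87.1, 79.7 and 80.2 CPM with RANKL. Albiflorin replicate 1 lay within the RANKL range and the other 2 albiflorin libraries below it (log2 fold change -0.09 ± 0.0667, 95% interval -0.22 to 0.04, edgeR adjusted p = 0.351).

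Nf1, Ptpn7 and Sos1 were lower with albiflorin. These 3 of the 7 tested genes were called lower at an adjusted p under 0.05 and 0 were called higher, where 11.4% of all tested genes were called lower, 12.4% higher and 23.8% either way. The same 3 genes were those whose albiflorin libraries all lay below the RANKL libraries, and 0 had them all above. Of all tested genes, 19.3% had them all below, 20.8% all above and 40.1% either. In bulk RNA, fewer cells of a type and less RNA per cell cannot be told apart. Relative to RANKL, Ptpn7 fell by 15.1%, Sos1 fell by 18.2% and Nf1 fell by 21.8%.

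Nf1 (MGP_C57BL6NJ_G0019188, chromosome 11, 82906041 to 83171309), the Ras GTPase-activating partner of the Spred proteins, stood at 62.2, 55.7 and 66.1 CPM in albiflorin libraries and at 80.2, 79.7 and 75.4 CPM in RANKL libraries. Albiflorin replicate 2 was the lowest and no library of one group reached the other group. The log2 fold change was -0.35 ± 0.072 (SE; edgeR adjusted p = 0.00267). The fold change ran from -0.41 to -0.30 when each library was left out in turn, and the call held in all 6 of these fits. The gene spans Evi2a, a shorter gene on the opposite strand, which was higher with albiflorin (87 ± 4.17 CPM against 71.6 ± 5.6 CPM with RANKL, SD, n = 3 each). No source used here states if reads were counted by strand.

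Ptpn7 (MGP_C57BL6NJ_G0016920, chromosome 1, 143895378 to 143908818), the phosphatase that acts on ERK, stood at 108.5, 104.9 and 114.8 CPM with albiflorin and at 126.0, 130.2 and 130.2 CPM with RANKL. The groups were separated, with a log2 fold change of -0.24 ± 0.0603 (SE; edgeR adjusted p = 0.0102). The call held in all 6 fits that left out a library (adjusted p 0.006 to 0.0458).

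On the activating side, Sos1 (MGP_C57BL6NJ_G0024467, chromosome 17, 86351089 to 86442450) stood at 54.7, 51.2 and 56.3 CPM with albiflorin and at 67.3, 71.9 and 59.2 CPM with RANKL. RANKL replicate 3 came within a few CPM of the highest albiflorin library. The log2 fold change was -0.29 ± 0.0781 (SE; edgeR adjusted p = 0.0138), and it was -0.22 and no longer called without RANKL replicate 2 (adjusted p = 0.0781). It was also not called by limma on log2(FPKM + 1) (adjusted p = 0.0759). Grb2 (MGP_C57BL6NJ_G0019791, chromosome 11, 123343339 to 123419180), the adaptor that carries Sos1, stood at 149.0, 150.8 and 152.1 CPM with albiflorin and at 147.8, 135.8 and 150.2 CPM with RANKL. Only RANKL replicate 2 stood apart, below the others, and the groups overlapped (log2 fold change 0.06 ± 0.0607, 95% interval -0.06 to 0.18, edgeR adjusted p = 0.521).

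**Figure D2:**
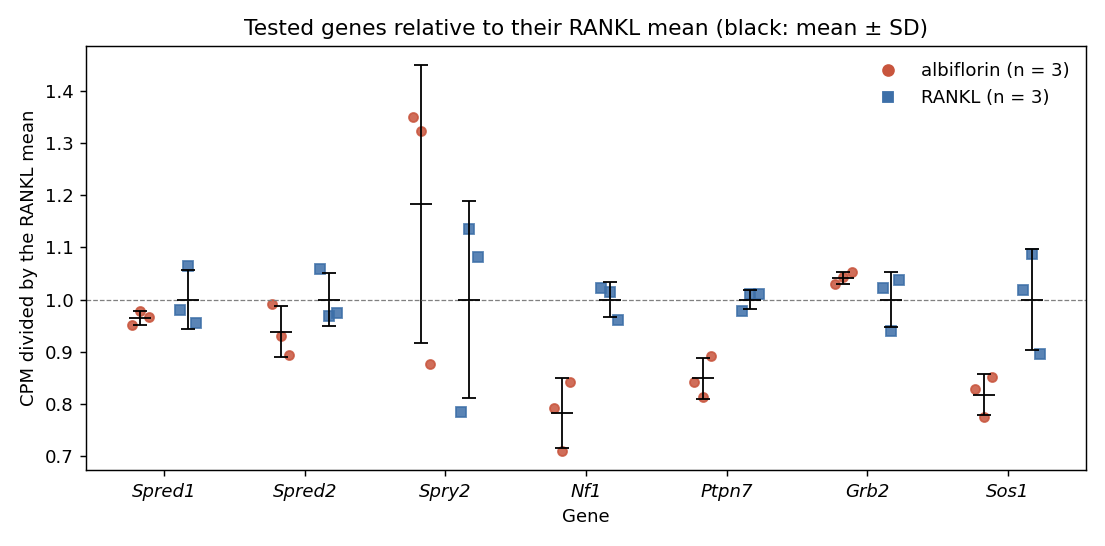
CPM of the 7 tested genes divided by the gene's mean over the RANKL libraries, with albiflorin libraries (circles) left of RANKL libraries (squares) and black marks at the mean ± SD (n = 3 each). The groups are separate for Nf1, Ptpn7 and Sos1 and overlap for Spred1, Spred2, Spry2 and Grb2.

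Ratios within a library restate these separations for pairs of partners and are given as a description. The FPKM ratio of Spred1 to Nf1 was 36.8, 42.2 and 35.2 in albiflorin libraries and 29.4, 32.1 and 30.4 in RANKL libraries. The ratio of Grb2 to Sos1 was 8.32, 9.01 and 8.26 with albiflorin and 6.72, 5.78 and 7.76 with RANKL. Neither ratio overlapped between the groups, and each gave an exact two-sided permutation p of 0.1, the smallest that 3 against 3 libraries allow, so none of the 7 ratios computed could pass a threshold of 0.05. Both set a shorter gene over a longer one (Spred1 at 6784 bases over Nf1 at 15861, Grb2 at 2916 over Sos1 at 8919). The length trend described below was not removed from them. The ratio of Sos1 to Nf1, which set the exchange factor against a GTPase-activating gene, overlapped (1.57 ± 0.0606 with albiflorin and 1.5 ± 0.105 with RANKL, SD, n = 3 each, exact two-sided permutation p = 0.4). The ratio of Spred1 to Spred2 also overlapped (8.88 ± 0.547 with albiflorin and 8.63 ± 0.762 with RANKL, exact two-sided permutation p = 0.8).

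Gene length moved with these differences. The class of genes listed at over 8000 bases had a median log2 fold change of -0.18, and it is the class of Nf1 (15861 bases) and Sos1 (8919 bases). Of its genes, 40% were called lower. In the class of 4000 to 8000 bases, which holds Ptpn7 (6098), Spred1 (6784) and Spred2 (4681), the median was -0.07 and 16.1% were called lower. In the class of 2000 to 4000 bases, which holds Grb2 (2916) and Spry2 (2085), the median was 0.05 and 3.89% were called lower. The slope of log2 CPM on each doubling of gene length, relative to the mean of the libraries, was -0.0621, -0.106 and -0.0272 in albiflorin libraries and 0.0486, 0.0974 and 0.0491 in RANKL libraries. The steepest slopes were thus those of albiflorin replicate 2, the lowest library for Nf1, Ptpn7 and Sos1, and of RANKL replicate 2, the highest for Sos1. Nf1, the longest gene of the set, was highest in RANKL replicate 1 (80.2 CPM, against 79.7 in RANKL replicate 2). Spred1, which was not called, was highest in RANKL replicate 2 (1094 CPM) and lowest in albiflorin replicate 1 (977.6 CPM).

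**Figure D3:**
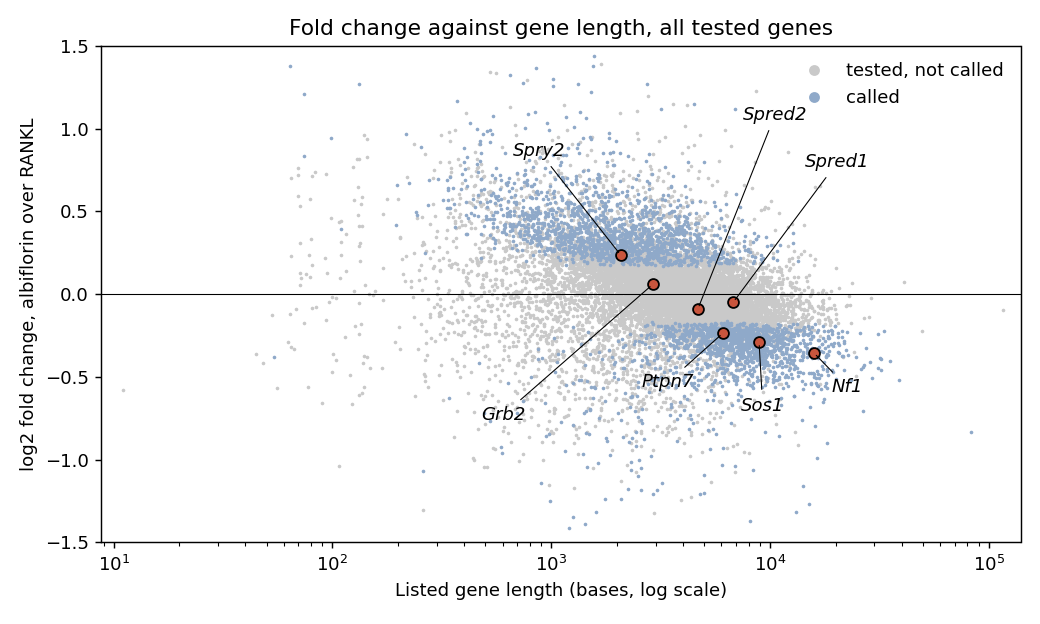
Log2 fold change (albiflorin over RANKL) against the listed gene length on a log axis, for the tested genes, with those called in blue and the 7 tested genes of the set in red. Another 23 genes lie beyond ± 1.5 and are not drawn. Nf1 and Sos1 sit among long genes, where the cloud lies below 0.

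After removal of each library's gene-length trend, none of the 3 genes was called. Nf1 then stood at -0.12 (edgeR adjusted p = 0.199), Sos1 at -0.13 (adjusted p = 0.196) and Ptpn7 at -0.15 (adjusted p = 0.0645), in a fit that called 7.96% of all tested genes lower and 7.18% higher. With the trend on the mRNA length of the principal transcript removed instead, Ptpn7 was called at -0.22 (adjusted p = 0.0147), while Nf1 (-0.04, adjusted p = 0.694) and Sos1 (-0.04, adjusted p = 0.727) were not, and 5.08% of all tested genes were lower and 4.89% higher. As a ratio, the lengths used differ more for Ptpn7 than for Nf1 and Sos1, at 6098 bases for the listed gene and 3261 for its mRNA, with 15861 and 11917 for Nf1 and 8919 and 8436 for Sos1. Spred1 turned from a negative to a positive fold change under both removals (0.06 and 0.13, adjusted p = 0.495 and 0.124), and Grb2 turned negative after the gene-length removal (-0.01, adjusted p = 0.927). The part of length in these differences was not tested further.

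**Figure D4:**
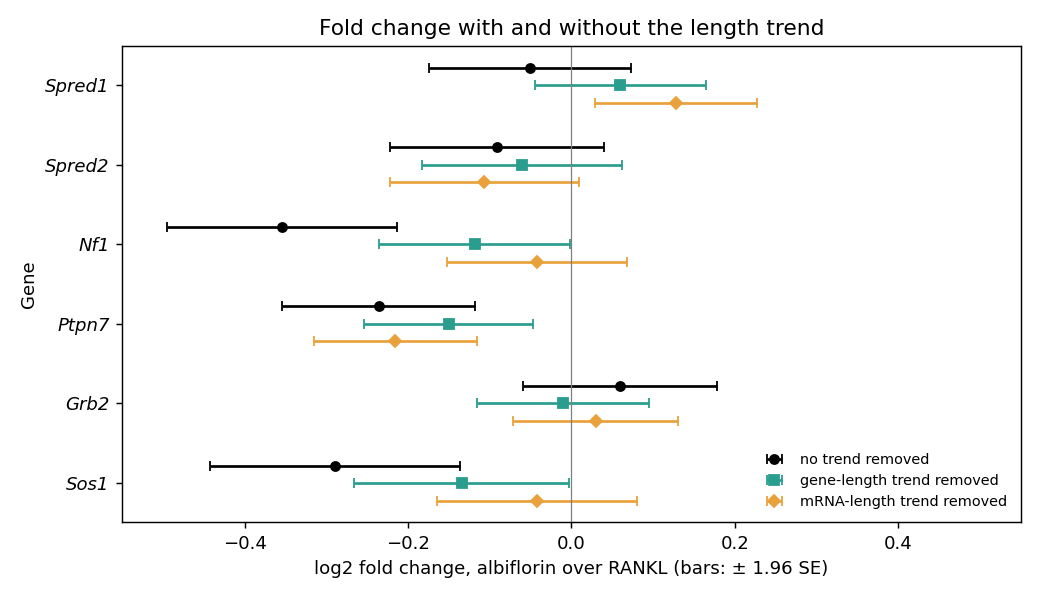
Log2 fold change (albiflorin over RANKL, bars are 95% intervals) of 6 tested genes as fitted, after the gene-length removal and after the mRNA-length removal. Nf1 and Sos1 moved towards 0 after either removal, and Ptpn7 stood at -0.22 after the mRNA-length one.

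Rasa1 encodes the other main Ras GTPase-activating protein of the set. A single row without a symbol (MGP_C57BL6NJ_G0021183, chromosome 13, 88866702 to 88952250) is described in the deposited table by a match to the rat RASA1 protein, and it was kept apart from the members. It stood at 88.2, 85.2 and 93.4 CPM in albiflorin libraries and at 84.6, 94.8 and 87.3 CPM in RANKL libraries. The groups overlapped, with means of 88.9 CPM in both. Its span overlaps Ccnh on the opposite strand.

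Other genes of the pathway were taken whole from 6 lists by role. Over all tested genes the median log2 fold change was 0.01, with 12.4% called higher and 11.4% called lower. Of 13 other Sprouty, Spred and Ras-GAP genes tested, 0 were higher and 1 was lower, Iqgap1, a scaffold related to Ras GTPase-activating proteins (-0.33 ± 0.0689, edgeR adjusted p = 0.00346), with a list median of -0.10. Iqgap1 lost its call after the gene-length removal (adjusted p = 0.309). Spred3, the third Spred gene, chosen for naming after its values were seen, stood at 9.11 ± 2.52 CPM with albiflorin and 8.21 ± 0.339 CPM with RANKL (SD, n = 3 each) and was not called.

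Of 9 ERK phosphatase genes tested, 3 were higher and 0 lower, with a median of 0.10. These were the dual-specificity phosphatase genes Dusp1, Dusp2 and the ERK-selective Dusp6. Dusp6 averaged 64.6 ± 4.81 CPM with albiflorin and 41.7 ± 1.52 CPM with RANKL, and Dusp1 averaged 43.4 ± 26.1 CPM with albiflorin and 7.98 ± 1.08 CPM with RANKL (SD, n = 3 each). Both were also called with either length trend removed, and Dusp2 (0.55 ± 0.172) was not. The list then had 3 higher and 1 lower after the gene-length removal, and 3 higher and 0 lower after the mRNA-length removal. These 3 were not the same 3, as Dusp2 had lost its call. Without albiflorin replicate 3, Dusp1 stood at 1.86 rather than 2.45. Dusp2 also lost its call without albiflorin replicate 3, RANKL replicate 1 or RANKL replicate 2 (adjusted p 0.139, 0.0786 and 0.0966). Ptpn7 and Dusp6, which both encode phosphatases that act on ERK, thus had fold changes of opposite sign, -0.24 and 0.63.

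Of 17 other adaptors and Ras exchange factors tested, 1 was higher and 6 were lower, with a median of -0.14. The count of 6 was 3 without albiflorin replicate 1, RANKL replicate 1 or RANKL replicate 2. After the gene-length removal the list had 0 higher and 4 lower (median -0.08). After the mRNA-length removal it had 0 higher and 3 lower (median -0.07). The docking adaptor gene Gab2 (-0.46 ± 0.0801), the phosphatase gene Ptpn11 (-0.38 ± 0.0679), which relays receptor signals to Ras, and the lipid phosphatase gene Inpp5d (-0.32 ± 0.0713) fell, and these 3 were called with either length trend removed. Grap, a Grb2 relative, rose by 0.25 ± 0.0634, but lost its call after the gene-length removal (edgeR adjusted p = 0.478) or without albiflorin replicate 1 (adjusted p = 0.0714). Sos2, the closest relative of Sos1 and chosen for naming after its values were seen, stood at 59.4 ± 2.45 CPM with albiflorin and 65.4 ± 4.76 CPM with RANKL (SD, n = 3 each) and was not called (-0.14 ± 0.0715).

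Of 8 Sprouty partners and modifiers tested, 2 were higher and 1 was lower, with a median of -0.12. The ubiquitin ligase gene Cbl, whose product binds Sprouty proteins, fell (-0.50 ± 0.076, edgeR adjusted p = 0.000491). Siah2, another ubiquitin ligase gene, rose (0.38 ± 0.0928, adjusted p = 0.00765). Both were called with either length trend removed. Plk1, a mitotic kinase gene, rose by 0.21 ± 0.0667, and lost its call after either length removal and without albiflorin replicate 1 or 3 or RANKL replicate 2 or 3 (edgeR adjusted p 0.131, 0.0753, 0.138 and 0.0563).

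Of 15 core Ras, Raf, MEK and ERK genes tested, 2 were higher and 1 was lower, with a list median of 0.02. The higher genes were the small GTPase genes Hras (0.33 ± 0.0981) and Rras (0.32 ± 0.0961). Rras stood at 0.04 after the gene-length removal and at 0.00 after the mRNA-length removal (edgeR adjusted p = 0.815 and 0.990). Hras lost its call without albiflorin replicate 1, RANKL replicate 1 or RANKL replicate 2 (edgeR adjusted p 0.129, 0.0918 and 0.0745), and Rras without albiflorin replicate 2, RANKL replicate 2 or RANKL replicate 3 (0.109, 0.0641 and 0.104).

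The list of 15 ERK response genes, all tested, had 5 higher and 1 lower, with a median of 0.57. The transcription factor gene Fos averaged 258 ± 99.5 CPM with albiflorin and 19.8 ± 4.5 CPM with RANKL (SD, n = 3 each; log2 fold change 3.70 ± 0.217 SE). The immediate early genes Ier2 (1.22 ± 0.0889) and Ier3 (0.84 ± 0.111) rose too, as did Dusp6, which is also on this list. The zinc-finger transcription factor genes Egr1 and Egr3 fall outside the naming rule and were named after their values were seen. Egr1 averaged 62.0 ± 36.1 CPM with albiflorin and 28.0 ± 0.477 CPM with RANKL (log2 fold change 1.15, and 0.57 without albiflorin replicate 3). Its call was lost with DESeq2 (adjusted p = 0.0528) and with limma on log2(FPKM + 1) (adjusted p = 0.0878). Egr3 was called lower (-0.72 ± 0.245), and this call held in only 1 of the 6 fits with a library left out, that without albiflorin replicate 1 (edgeR adjusted p = 0.0483), against 0.0690 to 0.142 in the others. Spry2 and Spry4, also ERK-induced in many cells, had 7 to 23 counts in the same libraries. The interval given above for the log2 fold change of Spry2 (-0.43 to 0.90) includes those of Dusp6 (0.63) and Ier3 (0.84). Spry4 was too low to test. These counts thus cannot show if Spry2 and Spry4 rose with the other response genes or not.

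**Figure D5:**
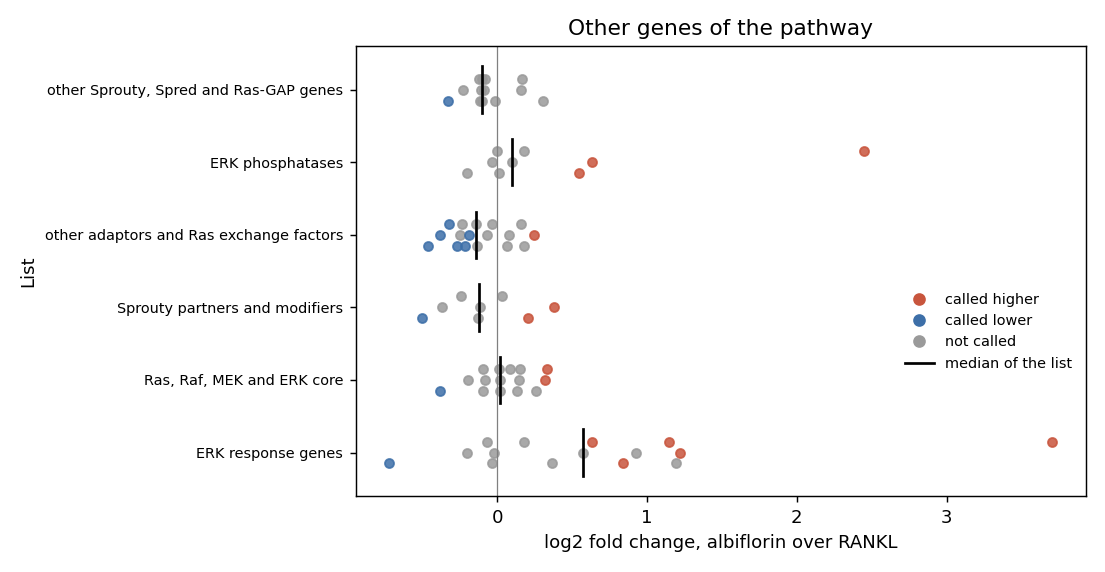
Log2 fold change (albiflorin over RANKL) of every tested gene in 6 lists, with those called higher in red, called lower in blue and not called in grey, and black lines at the list medians. The medians lie between -0.14 and 0.10 except for ERK response genes at 0.57.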

How the data were processed

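RNA of 6 libraries, 3 albiflorin and 3 RANKL, was analysed, with groups and replicate numbers from the sample titles. The authors deposited whole-number counts per gene and FPKM values, which equalled the counts over listed gene length and a total within -0.95% to 1.65% of the column total. Per the submitters' processing notes, the tools included HISAT2 2.2.1 and fastp, featureCounts 2.0.6-p3, CASAVA 1.8 and DESeq2 1.42.0. No source used here names the build, so coordinates are those of the deposited table, whose identifiers carry Ensembl's C57BL/6NJ prefix.

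The counts were tested with edgeR 4.0.16 in R 4.3.3 (filterByExpr, TMM, quasi-likelihood F-test on group, Benjamini-Hochberg adjustment over all tested genes, threshold 0.05). CPM uses TMM-scaled library sizes. The SE is the absolute log2 fold change over the square root of F, and 95% intervals are the normal quantile times the SE. Alternatives used DESeq2 1.42.0, limma 3.58.1 (voom, or log2(FPKM + 1) and log2(FPKM + 0.1)), RLE scaling, other filters, the replicate number as a block, each library left out, and lowess trends (span 0.3, genes above 3 log2 CPM) on the listed gene length or on GENCODE M21 mRNA length. The last was added after the data were seen, and 85.4% of tested genes had an mRNA length, the others taking the listed one. The fit was also run on simulated counts with the same dispersion for every gene, and that run is not used as support here.

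Members, lists and the length trends were chosen with earlier results of these data known. Named are all members and, per list, the called genes of lowest p, at most 4, and 1 such gene is not reported here. Replicates of a group differed by more than sampling noise (chi-square per degree of freedom 3.77 to 9.15).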

Additional observations from a re-analysis of the deposited data

How the results depend on the processing

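The calls of Nf1, Ptpn7 and Sos1 were kept with RLE scaling, DESeq2, limma-voom, both other filters on low counts and the replicate number as a block (adjusted p up to 0.00592, 0.0258 and 0.0269), and they depended on the length trend. With the gene-length trend removed the log2 fold changes were -0.119 for Nf1, -0.134 for Sos1 and -0.1502 for Ptpn7, and with the replicate block as well -0.120, -0.1315 and -0.1504, none called. With the mRNA-length trend removed Nf1 stood at -0.0420 and Sos1 at -0.0424, and with the replicate block as well at -0.0429 and -0.0400, neither called, while Ptpn7 was called in both. Sos1 was not called on log2(FPKM + 1) (-0.253) or log2(FPKM + 0.1) (-0.286), and with libraries left out it ran from -0.366 to -0.223. The cause was not tested.

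The sign of Spred1 turned to 0.0601 with the gene-length trend removed, 0.0604 with the block as well, 0.1281 with the mRNA-length trend removed and 0.1275 with the block as well, and Grb2 took -0.0104 in the first of these and -0.0100 in the second. Sos2 turned to 0.00839, 0.0108, 0.0201 and 0.0225 in the same 4 fits, and Spred3 ran from -0.109 without albiflorin replicate 1 to 0.289 without albiflorin replicate 3. Spry2 and Spred2 were not called in any setting that tested them.

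In all, 3127 genes were called, 1631 higher and 1496 lower. Leaving out a library gave 1924 to 3397 in all, 984 to 1753 higher and 914 to 1644 lower, with the 3 smallest totals without albiflorin replicate 1 (1961), albiflorin replicate 2 (2024) and RANKL replicate 2 (1924). The gene-length trend removed gave 1993 (945 higher), with the replicate block 1700 (813 higher and 887 lower). The mRNA-length trend removed gave 1313 (644 and 669), with the block 1203 (603 and 600). Limma called 901 lower on log2(FPKM + 1) and 909 on log2(FPKM + 0.1). The block alone gave 2572. Same-numbered libraries did not deviate together (correlations 0.0219, -0.0433 and -0.0664), so the numbers were not taken as pairs. Of 396 list counts under the alternatives, 91 differed by over 1.5 times. Of 20 named list and osteoclast marker genes that were called, 10 lost the call in at least 1 alternative, Acp5 with the replicate block alone (edgeR adjusted p = 0.0562) among others. Depth limits Spry1, Spry2 and Spry4, which had 0 to 23 counts per library.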
